A study of Oryza sativa Japonica Group with 9 samples.

Results

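Fructose-bisphosphate aldolase FBA1 and the pyruvate decarboxylases recorded as PDC are described here in rice, in the egg cell before and after fertilization and in the zygote. They were chosen by name: every probe set that the array's annotation pairs with 1 gene, where that gene has FBA1 or PDC as its symbol or a synonym. This found 4 genes of 17905 on the array and 5 probe sets of 57194 for rice. FBA1 (gene ID 4338737) has 1 probe set, with the suffix S1_a_at (several transcripts of 1 gene). PDC is a synonym of 3 genes: PDC1 (4339066) with 1 probe set, PDC2 (4332519) with a bright one, suffix S2_at, and a dim one, suffix S1_at, and PDC3 (4344382) with 1, suffix S1_a_at. All 5 probe sets passed the filter on dim signal.

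Aldolase splits fructose-1,6-bisphosphate into 2 triose phosphates, the step of glycolysis at which a six-carbon sugar becomes three-carbon sugars. Pyruvate decarboxylase stands past the end of that pathway and turns pyruvate into acetaldehyde, which alcohol dehydrogenase reduces to ethanol while NAD+ is regenerated. In rice this branch is best known from germination and survival under water, when oxygen is short, and in tobacco pollen pyruvate decarboxylase also feeds acetaldehyde to the synthesis of acetyl-CoA.

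The study measured wild-type rice of the japonica subspecies, cultivar Katy, grown in a greenhouse, on 9 Affymetrix rice arrays. Unfertilized egg cells from florets at anthesis, fertilized egg cells and zygotes had 3 arrays each. The fertilized egg cells were labelled 1 hap (hours after pollination), with a range of 1 to 1.5 hap in the design text, and the zygotes 3 hap, with a range of 2.5 to 3 hap. Each array read a pool of about 100 cells, isolated without enzymes, and each transcript was read by a probe set, a group of short oligonucleotides. In such pools, fewer cells with a transcript and less of it per cell cannot be told apart.

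Several array measures bear on the values below. Zygote replicate 2 stood apart, with a median correlation with the other arrays of 0.694 against 0.866 to 0.929 for the other 8, and its median rice signal was 218 against 36.5 to 101 elsewhere. The log2 ratio of poly-A spikes, added before amplification, to hybridization spikes, added after it, was -2.16 to -1.26 in egg cells and 0.967 to 1.72 in the later 6 arrays. The mean log2 excess of 3′ over 5′ probe sets of 3 control transcripts (GAPDH, actin, cyclophilin) was 3.20 to 5.08 for egg cells, 4.39 to 5.97 for fertilized eggs and 3.70 to 5.10 for zygotes, and was highest in fertilized egg replicate 3. A free-text label field names seedlings, pollen and sperm cells in place of the 3 stages. Of 7 egg and zygote markers, 2 had a probe set of 1 gene (WOX8 and WOX9), with a summed signal of 248 to 304 among egg cells, 187 to 351 among fertilized eggs and 411 to 519 in zygotes. WOX9 fell below the filter on dim signal. WOX8 alone read 244 to 285, 179 to 316 and 302 to 456 in the same order, so fertilized eggs and zygotes overlapped in it. The summed signal of 4 leaf markers was 12177 to 20948, 14198 to 18810 and 3104 to 13391 in the same order, led by CAB2R. CAB2R read 1201 in zygote replicate 2 and 9624 or more in every other array. PSAH went the other way, at 95.2 to 131 in egg cells and 201 to 613 in zygotes. That of 3 nucellus and ovule wall markers was 18595 to 28666, 17294 to 20477 and 13135 to 23873. Of 8 genes listed for sperm and pollen, 2 had a probe set, RTS and OSC6, and both fell below the filter on dim signal. OSC6 read 286 in zygote replicate 2, against 13.7 to 47.9 in the other arrays. GEX2, HAP2, GCS1 and DUO1 had no probe set, so this list does not measure sperm transcripts. Of 4 endosperm markers, 3 had one, with a summed signal of 7244 to 14924, 11923 to 36002 and 8122 to 20754, nearly all of it from GBSS-I. The part of these transcripts in the results was not tested.

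FBA1 was bright in every array and its mean signal was lowest in egg cells and highest in zygotes. It read 12971, 13847 and 15169 in egg cell replicates 1 to 3. In fertilized eggs it read 12462, 18049.6 and 42239, and in zygotes 40512, 25815 and 56277. The egg arrays lay close together and all 3 zygote arrays lay above all 3 egg arrays, while fertilized egg replicates 1 and 2 were near the egg level and replicate 3 was within the zygote range. The stage means were 13996 ± 1106, 24250 ± 15827 and 40868 ± 15234 (SD, n = 3). By its mean log2 value over the 9 arrays, the probe set ranked at the 99.7th percentile of all rice probe sets, so the changes below are read well above the offset of 15 that was added before taking logs.

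**Figure D1:**
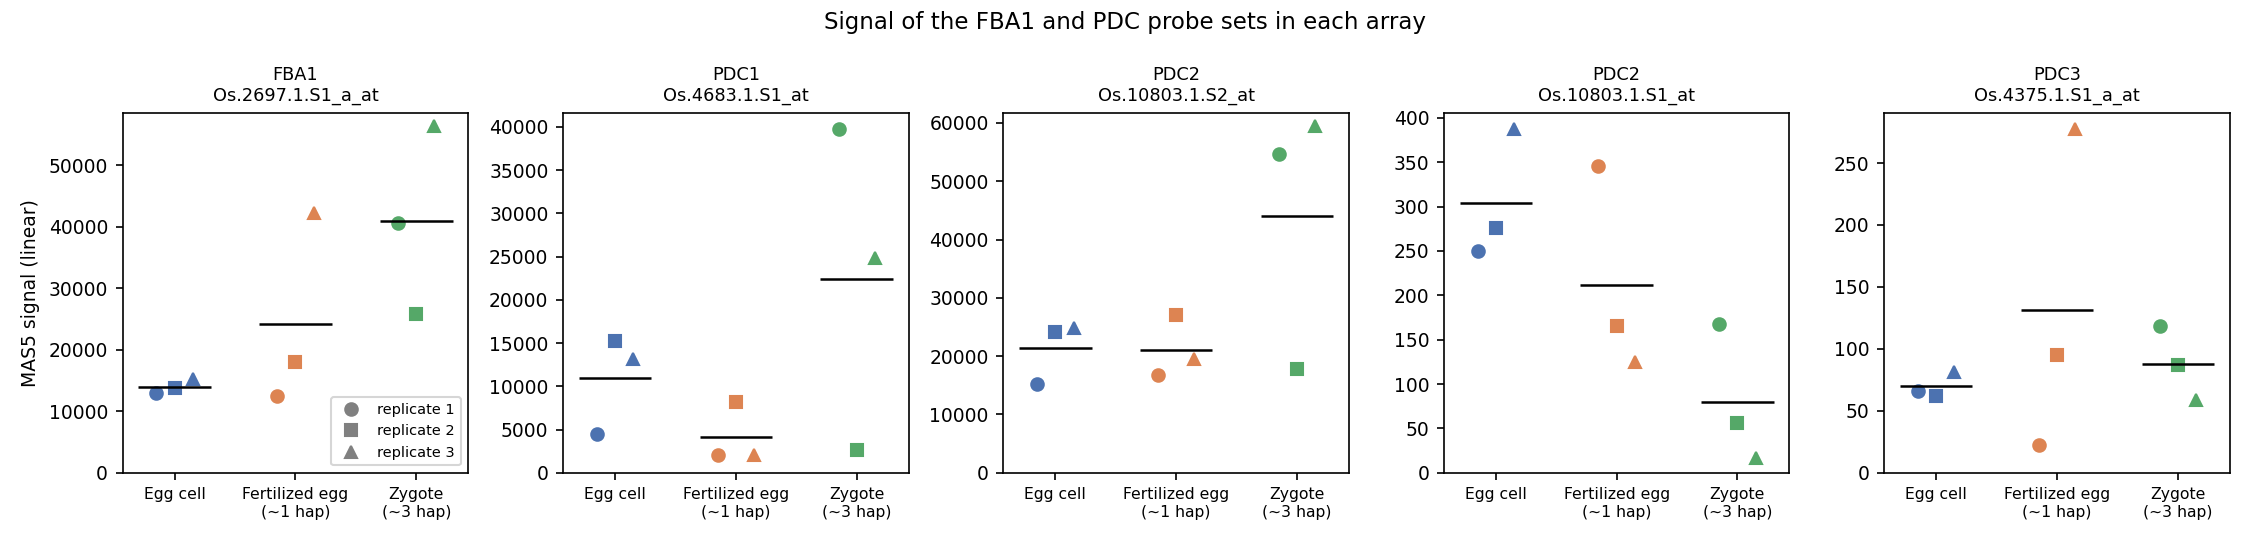
MAS5 signal on a linear axis from 0 for the 5 probe sets of FBA1 and PDC, by stage. Each point is 1 array (circle, square and triangle for replicates 1, 2 and 3) and each line is the mean of 3 arrays. FBA1 reads 12971 to 15169 in egg cells and 25815 to 56277 in zygotes, and PDC1 and the bright PDC2 probe set are each lowest among zygotes in replicate 2.

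Between egg cells and fertilized eggs, the contrast around gamete fusion, FBA1 differed by 0.60 ± 0.41 (log2, SE; 95% interval -0.29 to 1.49; adjusted p = 0.696 by limma). Without fertilized egg replicate 3 the difference was 0.10, without replicate 1 it was 0.98, and after quantile normalization it was 0.25. Between fertilized eggs and zygotes it differed by 0.88 ± 0.41 (log2, SE; interval -0.02 to 1.77; adjusted p = 0.483 by limma), with 0.49 without fertilized egg replicate 1 and 1.37 without fertilized egg replicate 3. These 2 contrasts share arrays with zygote minus egg cell, the contrast in which FBA1 and a PDC probe set first drew attention in an earlier analysis with array weights. The latter is therefore given as a description with no test. FBA1 was 2.78-fold higher in zygotes than in egg cells, a log2 difference of 1.48 ± 0.41 (SE), and lay between 1.21 and 1.77 when any 1 array was left out. After quantile normalization it was 1.06 and with array weights 1.75. The order of the levels was egg cell, fertilized egg, zygote, and neither pair of neighbours in that order differed beyond the spread of the arrays.

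The pyruvate decarboxylase probe sets differed among themselves. PDC1, one of the rice decarboxylase genes known to respond to lack of oxygen, read 4492, 15291 and 13188 in egg cells. It read 2087, 8176 and 2005 in fertilized eggs, and 39709, 2582 and 24818 in zygotes. Replicates of 1 stage differed by up to an order of magnitude in zygotes, where replicates 1 and 3 held the highest values of all arrays and replicate 2 lay within the fertilized egg range. The PDC1 means by stage were 10990.3 ± 5725, 4089.6 ± 3539 and 22369.8 ± 18684 (SD, n = 3). The order of the PDC1 means was fertilized egg, egg cell, zygote.

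PDC1 in fertilized eggs minus egg cells stood at -1.57 ± 0.88 (log2, SE; 95% interval -3.47 to 0.33; adjusted p = 0.638 by limma). In zygotes minus fertilized eggs it stood at 2.07 ± 0.88 (log2, SE; interval 0.16 to 3.97; adjusted p = 0.444 by limma). That difference was 3.27 without zygote replicate 2 and 1.30 without zygote replicate 1. Zygote minus egg cell, described only, was 0.50 ± 0.88 (log2, SE), and 1.70 without zygote replicate 2. It was -0.06 without egg cell replicate 1 and -0.27 without zygote replicate 1, so the direction of this difference rested on single arrays.

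PDC2 has a bright and a dim probe set, and their zygote means lay on opposite sides of the egg cell means. The bright one (S2_at) read 15299, 24112 and 24785 among egg cells and 16756, 27073.5 and 19584 among fertilized eggs. In zygotes it read 54672.5, 17799.7 and 59489. Egg and fertilized egg arrays covered the same range, zygote replicates 1 and 3 lay above all of them, and zygote replicate 2 lay inside their range. The means were 21398.5 ± 5293, 21138 ± 5331 and 43987 ± 22806 (SD, n = 3).

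In the bright probe set, fertilized egg minus egg cell was -0.01 ± 0.42 (log2, SE; 95% interval -0.93 to 0.90; adjusted p = 0.995 by limma). Zygote minus fertilized egg was 0.90 ± 0.42 (log2, SE; interval -0.01 to 1.81; adjusted p = 0.481 by limma), and 0.65, 1.46 and 0.59 without zygote replicates 1, 2 and 3. The level in zygotes was 1.85-fold that in egg cells, a log2 difference of 0.89 ± 0.42 (SE), given with no test. Leaving out zygote replicates 1, 2 and 3 in turn gave 0.64, 1.45 and 0.58, and the value was 1.33 with array weights and 0.25 after quantile normalization.

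The dim probe set of PDC2 (S1_at) read 250.3, 276 and 387 among egg cells, 346, 165 and 125 among fertilized eggs, and 168, 56.0 and 16.8 in zygotes. All 3 zygote arrays lay below all 3 egg arrays, and fertilized eggs overlapped with both. The means were 304 ± 72.6, 212 ± 118 and 80.2 ± 78.4 (SD, n = 3). Its mean log2 value ranked at the 67.6th percentile of rice probe sets, against the 99.7th for the bright one, and its lowest zygote value was close to the offset. Fertilized egg minus egg cell was -0.59 ± 0.69 (log2, SE; 95% interval -2.08 to 0.90; adjusted p = 0.835 by limma), and zygote minus fertilized egg -1.49 ± 0.69 (interval -2.98 to 0.00; adjusted p = 0.476 by limma). The first lay between -0.99 (without fertilized egg replicate 1) and -0.30 (without replicate 3) when single arrays were left out. The second lay between -2.13 (without zygote replicate 1) and -0.87 (without zygote replicate 3). Zygote minus egg cell, again only described, was -2.08 ± 0.69 (log2, SE), with -2.43 at an offset of 1 and -1.60 at an offset of 50, and between -2.73 and -1.46 when single arrays were left out. With array weights it was -2.57, the value through which PDC drew attention earlier.

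The label PDC with a lower level in zygotes thus described the dim probe set of PDC2, whereas the bright probe set of the same gene and that of PDC1 had higher zygote means. The platform naming gives both PDC2 probe sets the suffix for a transcript read uniquely, and where each lies along the transcript was not analysed here. Over the 9 arrays their log2 values correlated at -0.49 (Pearson's r; the points share the arrays and their scaling). The array holds 3326 pairs of kept probe sets that read the same gene, over 2192 genes, and their median r was 0.273, with 10.1% at or below the PDC2 value. Among the 253 pairs whose mean log2 values lay 5 or more apart, as those of PDC2 do, the median r was 0.0175 and 16.6% were at or below the PDC2 value. The dim probe set drew attention through its fall in these same arrays, so nothing is read from the place of this pair among the others.

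**Figure D2:**
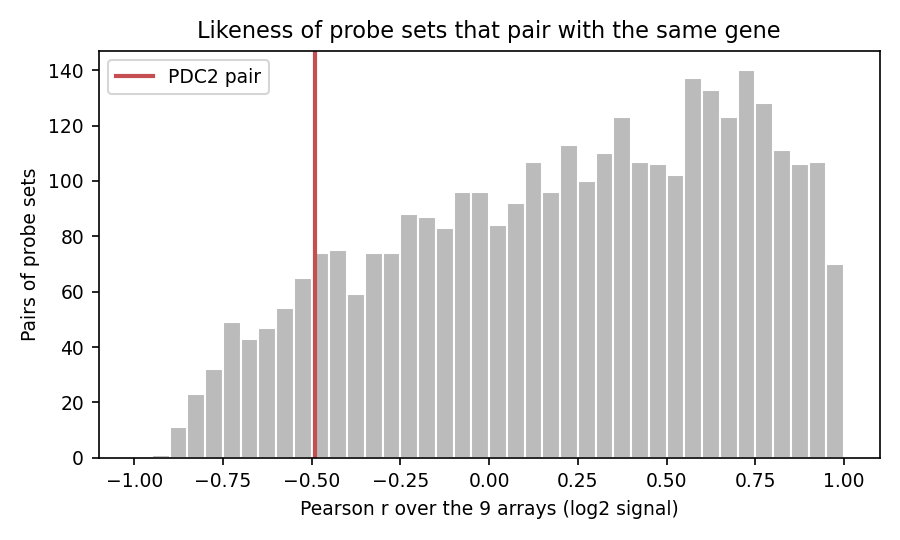
Number of pairs of kept probe sets that read the same gene (vertical axis) by Pearson's r of their log2 signal over the 9 arrays (horizontal axis). The red line marks the PDC2 pair at -0.49, and the median of the 3326 pairs is 0.273.

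PDC3 was near the dim end of the kept probe sets, at the 59.8th percentile. It read 66.3, 62.3 and 81.3 among egg cells, 22.2, 95.04 and 278 among fertilized eggs, and 118, 87.3 and 58.9 in zygotes. The egg and zygote values lay inside the range of the fertilized egg arrays, which held both the lowest and the highest value. Fertilized egg minus egg cell was 0.33 ± 0.75 (log2, SE; 95% interval -1.30 to 1.96; adjusted p = 0.923 by limma) and -0.40 without fertilized egg replicate 3. Zygote minus fertilized egg was -0.08 ± 0.75 (interval -1.71 to 1.55; adjusted p = 0.977 by limma), and zygote minus egg cell, with no test, 0.25 ± 0.75 (log2, SE), but -0.61 after quantile normalization. The second contrast was 0.65 without fertilized egg replicate 3.

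**Figure D3:**
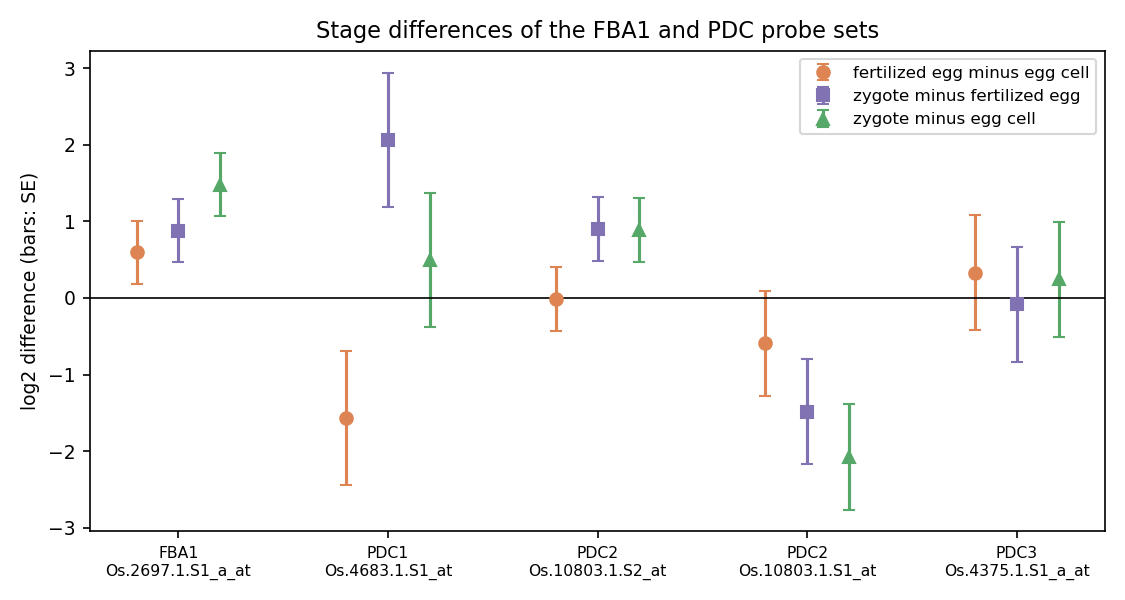
Log2 differences between stages for the 5 probe sets, from the fit of all 9 arrays, with bars of 1 SE. FBA1 is above 0 in all 3 contrasts, PDC1 is at -1.57 and then 2.07, and the PDC2 probe sets lie at 0.89 and -2.08 for zygote minus egg cell.

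None of the 5 probe sets passed an adjusted p of 0.05 in either tested contrast by limma. In fertilized egg minus egg cell 12 of the 28597 probe sets tested passed, 0.042%, and in zygote minus fertilized egg 0%. Before adjustment, 2544 and 3018 probe sets were under 0.05 by limma, and of the 5 only PDC1 in zygote minus fertilized egg was among them. In both contrasts the arrays of the 2 stages overlapped for all 5. Over all probe sets tested, 13.9% had 3 fertilized egg arrays all higher than the egg arrays and 11.1% all lower, and 6.41% had 3 zygote arrays all higher than the fertilized egg arrays and 6.37% all lower. For zygote minus egg cell, 20 probe sets passed, 0.0699%, and FBA1 was among the 13.4% with all arrays higher and the dim PDC2 probe set among the 8.96% with all lower. That contrast chose the genes, so nothing is read from those counts.

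FBA1 and the bright PDC probe sets were alike in some arrays and not in others. Over the 9 arrays the log2 values of PDC1 and the bright PDC2 probe set correlated at 0.86, FBA1 and the bright PDC2 probe set at 0.68, and FBA1 and PDC1 at 0.30 (Pearson's r, a description of points that share arrays). FBA1 correlated with the dim PDC2 probe set at -0.80 and with PDC3 at 0.54. In zygotes FBA1, PDC1 and the bright PDC2 probe set were lowest in replicate 2. The brightest probe sets of FBA3, ENO1, TPI, GAPC3 and ADH2 were lowest there too, whereas those of the hexokinase genes HXK2 (gene ID 4339420) and HXK6 were highest. Zygote replicate 2 is the array that stood apart, so this likeness is not particular to FBA1 and PDC. Its part in the correlations was not tested. In fertilized eggs FBA1 and the bright PDC probe sets parted: FBA1 was highest in replicate 3, whereas PDC1 and the bright PDC2 probe set were highest in replicate 2. Fertilized egg replicate 3 also had the highest 3′ over 5′ excess, 5.97, and the part of 3′ to 5′ excess in its FBA1 value was not tested.

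Among the other named genes, the one whose pattern was most like FBA1 was a further aldolase. By the rule of the 5 highest correlations among 2576 probe sets of named genes, FBA1 was followed most closely by AldC-1, also called FBA3, at r = 0.958 over the 9 arrays. Next came AMPD, which encodes AMP deaminase, at 0.953, the protein kinase gene OSK24 at 0.945, the zinc finger gene OsC3H53 at 0.931 and AC1 at 0.920. The genes most like PDC1 were OsPUB4, a U-box ubiquitin ligase gene, at 0.951, the zinc finger gene OsC3H37 at 0.933, PAL, for phenylalanine ammonia-lyase, at 0.929, the phosphatase gene OsPP2C11 at 0.928 and CPX at 0.924. For the bright PDC2 probe set they were the MAP kinase gene MPK8 at 0.950, ARF2 at 0.924, bHLH at 0.922, the nitrate reductase gene NIA1 at 0.908 and LTD at 0.902. For PDC3 they were APRL5 at 0.920, RPS10-1 at 0.908, bas1 at 0.884, osRAD23 at 0.860 and COI2 at 0.847. Each list holds the highest of all these correlations over only 9 arrays, so the values carry no test.

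FBA3, the aldolase most like FBA1, read 25855, 27479 and 27419.8 among egg cells and 33484, 33468 and 67915 among fertilized eggs. In zygotes it read 63568, 48357.5 and 65609.7. All 6 later arrays lay above the egg arrays, and fertilized egg replicate 3 was above the zygote arrays. FBA3 differed by 0.66 ± 0.30 between fertilized eggs and egg cells (log2, SE; adjusted p = 0.555 by limma) and by 1.12 ± 0.30 between zygotes and egg cells (adjusted p = 0.195 by limma). With array weights the latter was 1.23 ± 0.26 (adjusted p = 0.0342 by limma), in a fit that called 568 of 28597 probe sets. FBA1 was chosen from that contrast and fit, and FBA3 resembles FBA1, so nothing is read from this pass. After quantile normalization the 2 FBA3 differences were -0.11 and 0.14. The fainter FBA3 probe sets, of which 1 has the suffix S1_x_at for possible cross-hybridization, correlated with FBA1 at -0.03 and -0.11, against 0.96 for the brightest.

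FBA2, listed also as AldC-alpha, had another shape. It read 1546, 453 and 572 among egg cells, 4206, 3669.7 and 10793 among fertilized eggs, and 30.1, 1307 and 1256 in zygotes. All fertilized egg arrays lay above all arrays of both other stages, and zygote replicate 1 was far below the rest. The FBA2 difference was 2.87 ± 1.05 from egg cells to fertilized eggs (log2, SE; adjusted p = 0.472 by limma) and -3.70 ± 1.05 from there to zygotes (adjusted p = 0.308 by limma). Without zygote replicate 1 the latter was -2.09. The first of these passed with array weights (2.36 ± 0.61, adjusted p = 0.0421 by limma) and when the other 3 arrays were left out of the fit (adjusted p = 0.0422 by limma). Those fits called 1248 and 155 of 28597 probe sets in this contrast, against 12 with all arrays and no weights. The passes of FBA2 thus depended on the choice of fit. The log2 values of FBA2 correlated with those of FBA1 at -0.12. ALDP, the plastid aldolase, read 285 to 379 among egg cells, 213 to 274 among fertilized eggs and 204 to 311 in zygotes in its brightest probe set. That probe set also has the suffix S1_x_at for possible cross-hybridization. In it ALDP differed by -0.41 ± 0.44 and 0.17 ± 0.44 in the 2 successive contrasts (log2, SE, adjusted p = 0.821 and 0.913 by limma). A fainter kept ALDP probe set read 152 to 247, 111 to 149 and 135 to 251 in the 3 stages.

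**Figure D4:**
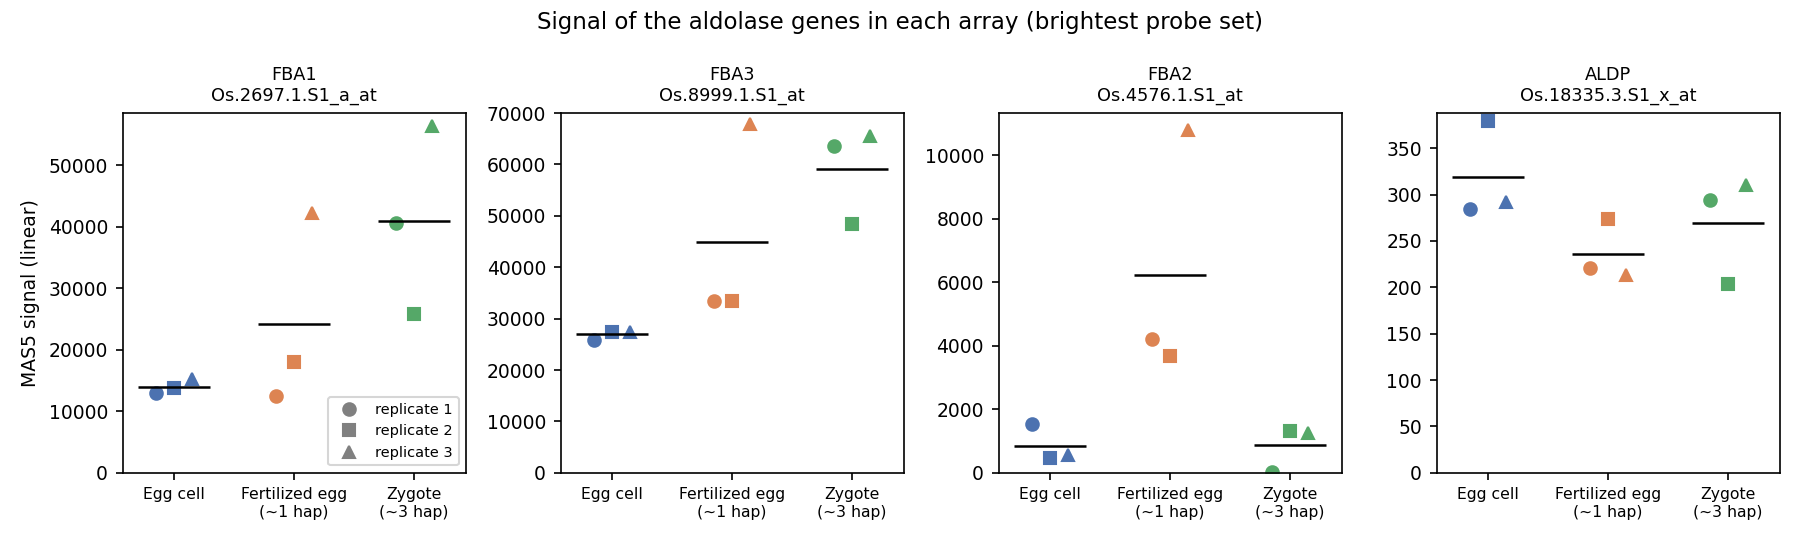
MAS5 signal on a linear axis from 0 for the brightest probe set of each of the 4 aldolase genes, by stage. Each point is 1 array and each line the mean of 3 arrays. FBA1 and FBA3 are highest in zygotes and fertilized egg replicate 3, and FBA2 reads 3669.7 to 10793 in fertilized eggs against at most 1546 elsewhere.

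Other genes of the pathway were read from a list of symbols for sucrose breakdown, glycolysis and fermentation. The symbols searched for phosphoglucose isomerase, phosphofructokinase, phosphoglycerate kinase and phosphoglycerate mutase matched no gene. Those for lactate dehydrogenase and aldehyde dehydrogenase matched none either. The counts and medians below therefore do not cover these steps, and hexokinase gave more of the genes than any other step. The list matched 45 genes, 12 of which were other proteins that share a symbol and were left out. Of the remaining 33 genes, 28 had a probe set of 1 gene and 26 were kept, 22 of them apart from FBA1 and the PDC genes. In fertilized eggs minus egg cells 13 of the 22 were above 0 and 9 below, with a median of 0.10 against 0.06 over all probe sets (log2). For zygote minus fertilized egg the split was 11 and 11, with a median of 0.02 against 0.02, and for zygote minus egg cell it was 10 and 12, with -0.05 against 0.05. The zygote minus egg cell median was 0.26 without zygote replicate 2, with 12 genes above 0, and -0.25 without zygote replicate 1, with 10 above 0. After quantile normalization it was -0.25 against -0.20 over all probe sets. No gene of the 22 passed in any of the 3 contrasts by limma, and 3, 5 and 6 had an unadjusted p under 0.05. In the first contrast 6 genes (27.3%) had all fertilized egg arrays above the egg arrays, against 13.9% of all probe sets, and 3 (13.6%) had them all below, against 11.1%. From fertilized eggs to zygotes 1 gene (4.55%) had all later arrays higher, against 6.41%, and 4 (18.2%) had them all lower, against 6.37%. For zygote against egg cell the counts were 4 higher (18.2%, against 13.4%) and 2 lower (9.09%, against 8.96%).

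Alcohol dehydrogenase, the enzyme after pyruvate decarboxylase, was represented by ADH2, as ADH1 has no probe set of its own in the annotation. ADH2 read 2217, 3000.1 and 2325 among egg cells, 1439, 2341 and 1649 among fertilized eggs and 6838, 1529 and 2461 in zygotes. Only zygote replicate 1 stood clear of the rest, and that array also had the highest PDC1 value. The ADH2 difference was -0.49 ± 0.46 and then 0.73 ± 0.46 in the successive contrasts (log2, SE; adjusted p = 0.794 and 0.594 by limma), the latter 0.13 without zygote replicate 1 and 1.21 without replicate 2.

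Genes of the other steps that the list covers follow by their brightest member. ENO1, which encodes enolase, read 25226 to 28470.2 among egg cells, 26849 to 52157.5 among fertilized eggs and 34370.3 to 48152 in zygotes, and was 0.65 ± 0.28 above egg cells in zygotes (log2, SE; adjusted p = 0.288 by limma), but at -0.22 after quantile normalization. TPI, for triose-phosphate isomerase, which interconverts the products of aldolase, stood at -0.09 ± 0.34 in the same contrast (adjusted p = 0.908 by limma), at -0.51 without zygote replicate 1 and at 0.28 without replicate 2. Of the glyceraldehyde-3-phosphate dehydrogenase genes, GAPC3 was at 0.65 ± 0.31 (0.30 without zygote replicate 1), GAPC2 at 0.57 ± 0.75 and GAPC1 at -0.34 ± 0.27 (log2, SE; adjusted p = 0.323, 0.722 and 0.533 by limma), and the difference between the genes was not tested. Without zygote replicate 2, GAPC2 was at -0.21 and GAPC1 at -0.16. The pyruvate kinase gene PK1, whose enzyme makes the substrate of pyruvate decarboxylase, was at 0.03 ± 0.39 (adjusted p = 0.980 by limma), at -0.48 without zygote replicate 1 and at 0.30 without replicate 2. Sucrose synthase was led by SUS2, at -0.66 ± 0.30 (adjusted p = 0.303 by limma).

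The brightest hexokinase gene was HXK2 (gene ID 4339420), which read 1132 to 1669 among egg cells, 2238 to 3413 among fertilized eggs and 1536 to 3495 in zygotes, a zygote minus egg cell difference of 0.93 ± 0.36 (log2, SE; adjusted p = 0.268 by limma). HXK5 (gene ID 4339361), named after its values were seen, read 2337 to 2468 in egg cells and 546 to 1145 in zygotes. It was -1.68 ± 0.39 in zygotes minus egg cells (log2, SE; adjusted p = 0.166 by limma). It passed with array weights (-1.67 ± 0.335, adjusted p = 0.0303 by limma) and without zygote replicate 1 (-1.98 ± 0.38, adjusted p = 0.0319 by limma). Those fits called 568 and 792 of 28597 probe sets in this contrast, against 20 with all arrays and no weights. HXK5 was picked from the same values, so nothing is read from these passes.

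**Figure D5:**
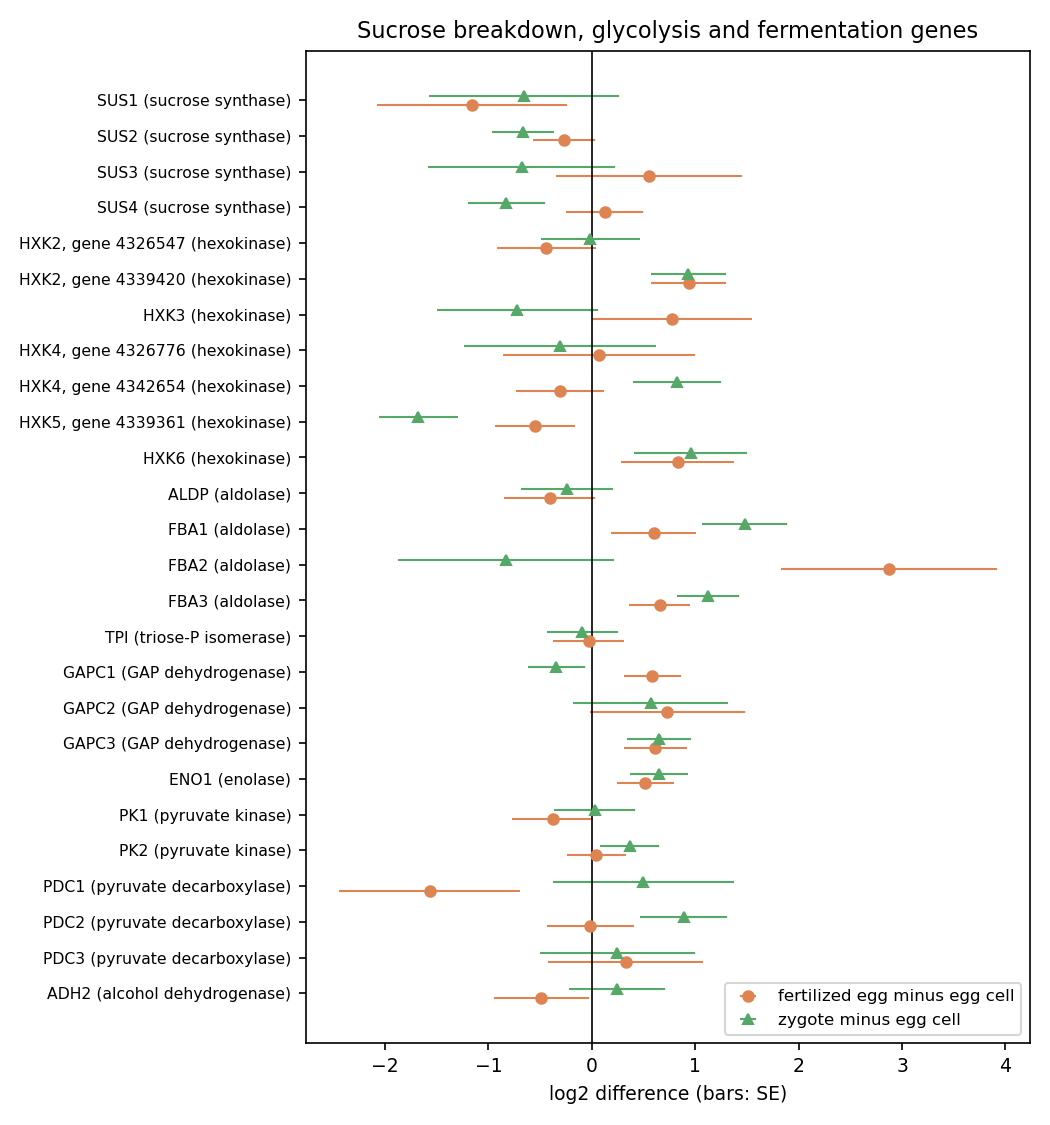
Log2 differences against egg cells of the 26 kept genes of sucrose breakdown, glycolysis and fermentation (1 probe set per gene, the brightest), with bars of 1 SE. Circles are fertilized eggs and triangles zygotes. FBA1 and FBA3 lie at 1.48 and 1.12 in zygotes, FBA2 at 2.87 in fertilized eggs, and the median of the 22 genes other than FBA1 and PDC is 0.10 in fertilized eggs and -0.05 in zygotes.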

How the data were processed

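The authors deposited 1 linear MAS5 signal per probe set and array, as the submitters' processing notes name it, without a version. RNA went through 2 cycles of amplification before biotin labelling, per the labels' protocols. The mean of each array after trimming 2% from either end was 500.1, so the deposited signal values share a common scale. Of 57381 probe sets, 123 controls and 64 reporters were left out. The array annotation gave 1 gene for 22436 probe sets, several for 95 and none for 34663, and all 17905 genes were found in RefSeq (ASM3414082v1), which gave their names. No coordinates or sequences are used.

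From these values log2(signal + 15) was computed, 15 being the 25th percentile, and probe sets were kept where their mean reached the median of all means, which left 28597. A difference on this scale understates changes of dim probe sets. A single limma model (version 3.58.1 in R 4.3.3, moderated with an intensity trend) covered the 9 arrays, with Benjamini-Hochberg adjustment over all kept probe sets, a threshold of 0.05, and was tested on simulated data. Tables and plots were made in Python 3.11.15 with matplotlib 3.10.9 and pandas 2.3.3. Precision is limited by the 3 arrays per stage. Sample titles call the arrays biological replicates while the treatment protocol says both biological and technical, so p-values measure the spread between these samples, which may be partly technical.

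FBA1, PDC and the pathway list were chosen with earlier results of these data known. Named are all probe sets of FBA1 and PDC; of the pathway list, all aldolases and alcohol dehydrogenases, genes past the threshold and the brightest gene of each other step; and the 5 genes most correlated with each. GAPC1, GAPC2 and HXK5 were added after their values were seen. Markers listed without a probe set of 1 gene are not analysed here. Alternatives were 2 offsets, no filter, quantile normalization, array weights, no trend, 6 arrays per fit, a replicate block, the spike ratio as a covariate and leaving out each array.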

Additional observations from a re-analysis of the deposited data

How the results depend on the processing

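No alternative took any of the 5 probe sets past the threshold in fertilized egg minus egg cell or zygote minus fertilized egg. All values here are log2 differences. Estimates for PDC1, the bright PDC2 probe set and PDC3 changed sign. For PDC1, zygote minus egg cell was 0.50 and became -0.06 without egg cell replicate 1 and -0.27 without zygote replicate 1. For the bright PDC2 probe set, fertilized egg minus egg cell was -0.01 and became 0.17 with array weights, and lay between -0.24 and 0.14 when single arrays were left out. For PDC3 the same contrast was 0.33 and became 0 (just below it) after quantile normalization, and lay between -0.40 and 1.09 without single arrays. PDC3 in zygote minus fertilized egg was -0.08, became 0.01 with an offset of 1, and lay between -0.84 and 0.65 without single arrays, and zygote minus egg cell turned from 0.25 to -0.61 after quantile normalization. The zygote minus egg cell differences moved by more than the spread between arrays with the spike ratio in the model: FBA1 to 2.64 ± 1.59, PDC1 to -5.23 ± 2.99, the bright PDC2 probe set to -0.59 ± 1.60 and the dim one to -4.57 ± 2.68 (SE). The spike ratio separates egg arrays from the others, so stage and ratio cannot be told apart in that fit. After quantile normalization the bright PDC2 probe set was at 0.25, and the cause was not tested. With the replicate number as a block, the replicate block fit left FBA1 at 1.48 and PDC2 at 0.89 and -2.08 and called none of the 5 in the tested contrasts. It called 8 probe sets in fertilized egg minus egg cell against 12 without it, and 8 against 20 in zygote minus egg cell. Same-numbered arrays deviated together at r = -0.22 to 0.14, over 0.1 in 1 of 9 pairs. With 3 arrays per stage these values cannot tell whether same-numbered arrays share a batch. Over all probe sets, fertilized egg minus egg cell called 1248 with array weights, 155 with only 6 arrays and 0 without trend or with the spike ratio. In zygote minus egg cell it was 568 with array weights, 9 after quantile normalization, 2 with only 6 arrays, and 0 without trend or with the spike ratio. Leaving out single arrays gave 1 to 67 calls in fertilized egg minus egg cell (67 without zygote replicate 2, 45 without zygote replicate 1), 0 to 6 in zygote minus fertilized egg (6 without zygote replicate 1) and 0 to 792 in zygote minus egg cell. The count was 792 without zygote replicate 1 and 0 without any 1 of the 3 egg cell arrays.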
